A study of Rattus norvegicus with 4 samples.

Results

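RNA of 9 complement genes was followed in NR8383 cells, a line of rat alveolar macrophages that came from lavage of a normal lung and grows as a mix of adherent and floating cells. The genes are C1qa, C1qb, C1qc, C2, C3, Cfb, Cfp, C3ar1 and C5ar1. They were chosen by symbol: array probes whose transcript accession maps to 1 of these 9 symbols in RefSeq were taken, which gave 10 probes for the 9 genes, out of 16581 genes with a named probe. All 4 samples belong to 1 group, the water control of 4 h tagged ALI, an abbreviation that the labels leave unexplained. The cells had gone through 20 passages and had been plated 48 h earlier in flasks of 25 cm2, in medium with 15% fetal bovine serum that had been heat-inactivated. The labels name no transgene and no other agent. With 1 group there was no contrast between conditions, so the report gives the level and the detection of each gene and how far it spread over the 4 biological replicates.

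Complement is a cascade of plasma proteins that tags microbes and dying cells for uptake, calls in leukocytes and can pierce membranes. The classical pathway starts when C1q binds antibody or a cell surface, the lectin pathway when mannose-binding lectins or ficolins bind sugars, and the alternative pathway when C3 turns over by itself; all converge on the cleavage of C3 and then of C5. The small fragments C3a and C5a, the anaphylatoxins, act through the receptors C3ar1 and C5ar1 on myeloid cells. The liver makes most of the complement in plasma, while macrophages in tissues are the main source of C1q and a local source of other components.

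RNA was copied into Cy3-labelled cRNA and hybridised to 1-colour arrays, 1 per replicate. Each value is the processed signal of a spot, an intensity on a linear scale after the scanner software's background handling; levels are also given as log2 signal relative to the 75th percentile of the gene spots of the array, so 0 stands for that percentile. A spot counts as well above background by the flag of the scanner software. A gene counted as detected if any of its probes passed this flag on 4 of 4 arrays, as not detected if none passed it on any array, and as partly detected in all other cases. Probes bind with different strength, so a probe was followed across the arrays and no gene was ranked against another. The number of arrays limits the precision of all values.

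As facts of the whole series, each array had 49.2% to 50.3% of its gene spots well above background, and no spot was saturated. Replicates 1 to 4 had a 75th percentile of 878, 932, 1237 and 831 (intensity), so replicate 3 was the brightest array. Without scaling, the median detected probe was shifted from the mean of the arrays by 0.36 (log2) on replicate 3 and by -0.20 on replicate 4. All 10 macrophage markers of a list were detected, among them Cd68, Csf1r and Spi1, as were 3 of the 5 alveolar macrophage markers that could be named (Pparg, Fabp4 and Siglec1), while Marco and Car4 were not. Detection was 0 of 7 for hepatocyte, 0 of 6 for alveolar epithelium, 0 of 4 for neutrophil, 1 of 5 for fibroblast (Dcn), 0 of 3 for T or B cell and 3 of 4 for endothelial markers (Pecam1, Cdh5 and Vwf). The part of cells of these types in the values below was not tested.

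Of the 9 complement genes, 5 were detected (C2, C3, Cfb, Cfp and C5ar1), C3ar1 was partly detected, and the 3 C1q chains were not detected. The share of 55.6% detected stands beside 51.0% of all named genes, and the 33.3% not detected beside 42.6%, so neither count sets the complement genes apart. In these bulk samples fewer cells with a transcript and less of it per cell cannot be told apart. The calls of the 5 detected genes and of C1qc held under all 8 alternative rules of detection. C1qa and C3ar1 became detected, and C1qb partly detected, with the looser flag for a positive and significant signal. The same held with a threshold at the 95th percentile of the negative control spots.

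**Figure D1:**
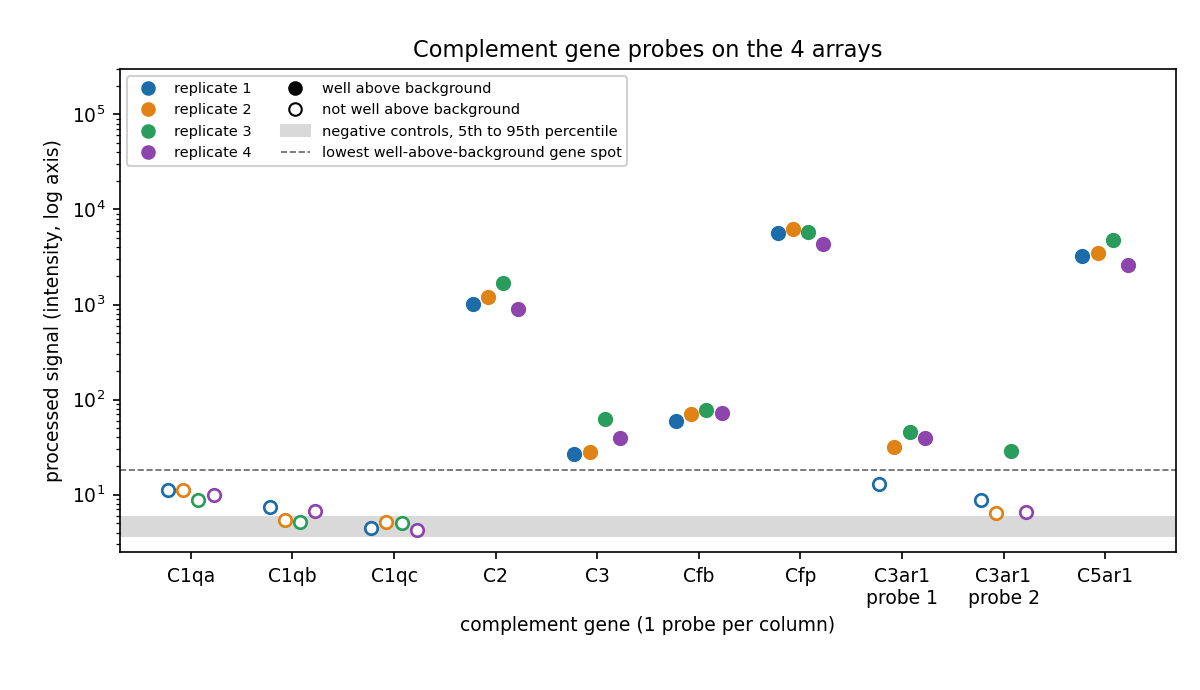
Processed signal (intensity, log axis) of each complement probe, 1 column per probe and 1 point per replicate; filled points were well above background, the grey band spans the 5th to 95th percentile of negative control spots and the dashed line is the lowest well-above-background gene spot. The C1q points lie under the dashed line on all 4 arrays, and heights of different columns are not comparable because probes differ in binding strength.

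C1q is a bundle of 3 chains encoded by C1qa, C1qb and C1qc, which lie next to each other on chromosome 5 in the RefSeq table of GRCr8. None of the 3 probes passed the background flag on any array. The C1qa probe was printed as 10 spots per array, and spots without an outlier flag were averaged on the log2 scale. Turned back to intensity, this mean signal was 11.1, 11.3, 8.90 and 9.98 on replicates 1 to 4. That is 1.95 to 2.58 times the median negative control spot of the same array, and no negative control spot (0%) reached the C1qa mean on any array. This sets a mean over 7 to 10 spots against single control spots; the median C1qa spot was 8.88 to 12.2, above the 95th percentile of the negative controls (5.18 to 5.79) on each array.

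The single spots of C1qa show how uneven this low signal was. Over all arrays they ran from 4.20 to 24.1 with a median of 10.7, in 36 spots without an outlier flag. Of these, 28 lay above the 95th percentile of the negative controls of their array and 1 was well above background, on replicate 1. The SD between single spots within an array, pooled over the 4 arrays, was 0.76 (log2).

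The C1qb probe lay closer to the negative controls on some arrays than on others. The probe, also with 10 spots per array, had mean signals of 7.51, 5.43, 5.15 and 6.77 on replicates 1 to 4, again averaged as log2. That is 1.13 to 1.74 times the median negative control. Of the negative control spots, 0.336%, 14.2%, 21.7% and 1.34% were as bright or brighter, but these are means set against single control spots. The median C1qb spot was 5.17, 4.94, 4.72 and 7.54, and 5 of 10, 2 of 9, 2 of 10 and 6 of 10 spots lay above the 95th percentile of the negative controls. On replicate 1 the median spot was at that percentile (5.18), and the brightest spots, at 29.4, 20.6 and 18.6, raised the mean. Over the 39 spots without an outlier flag, 15 lay above that percentile and 1 was well above background. The SD between single spots within an array, pooled over the 4 arrays, was 0.72 (log2).

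C1qc could not be told from background. Its probe has 1 spot per array, with signals of 4.51, 5.14, 5.04 and 4.28. Between 26.3% and 39.1% of negative control spots were as bright or brighter on each array. The spot error given by the scanner software was as large as the signal, at 4.52, 5.18, 5.06 and 4.29. None of these spots passed the flag for a positive and significant signal. Signal and error also nearly matched in every C1qa and C1qb spot that failed this flag, so the match is no separate evidence.

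**Figure D2:**
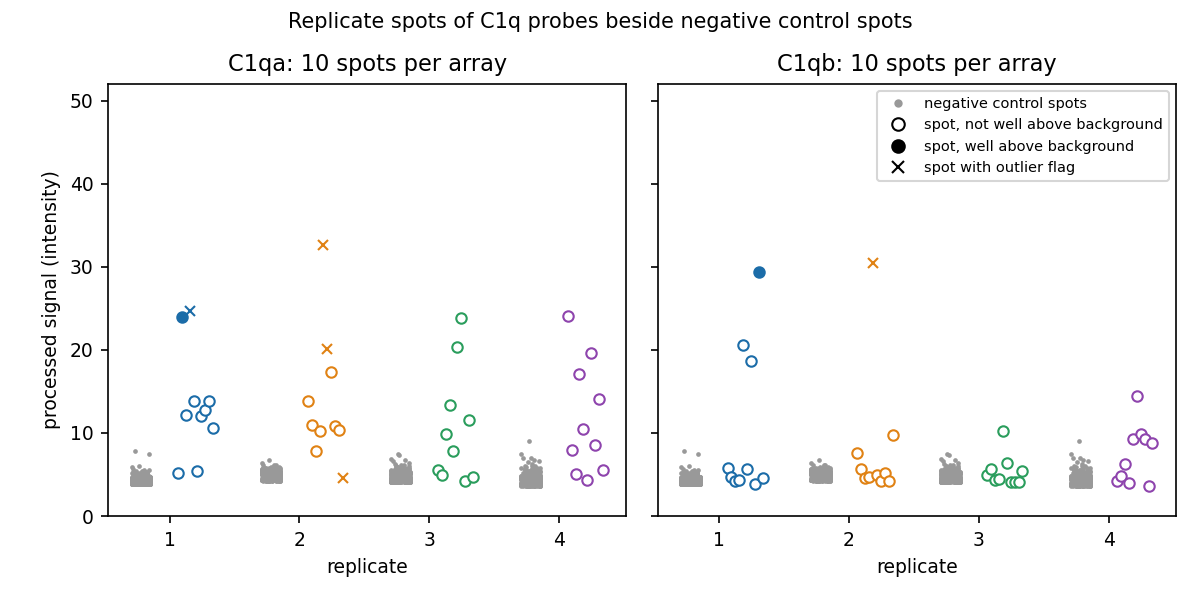
Processed signal (intensity) of the 10 replicate spots of the C1qa probe (left) and of the C1qb probe (right) on each array, beside the negative control spots in grey; filled circles were well above background and crosses carry an outlier flag. Most C1qa spots sit above the grey points, while most C1qb spots of replicates 2 and 3 sit among them.

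Promoter sequences show what lies just before the start of genes on both sides of the detection limit. RefSeq promoters of GRCr8 were at hand for 5 of the 9 genes (C1qa, C1qb, C3, C3ar1 and Cfp), and the 250 bases before the annotated start were searched on both strands for 4 motifs, which were chosen after the sequences had been seen. The motifs were the PU.1 motif GAGGAA, the C/EBP motif TTGCGNAA, the AP-1 motif TGANTCA and the interferon gamma element GAS as TTCNNNGAA. Other motifs had been searched too and are not reported here. Capitals mark every match, on either strand. The 2 C1q promoters are shown as genes that were not detected, and C3 and Cfp as detected ones.

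C1qa, chr5:154419934-154420183, minus strand: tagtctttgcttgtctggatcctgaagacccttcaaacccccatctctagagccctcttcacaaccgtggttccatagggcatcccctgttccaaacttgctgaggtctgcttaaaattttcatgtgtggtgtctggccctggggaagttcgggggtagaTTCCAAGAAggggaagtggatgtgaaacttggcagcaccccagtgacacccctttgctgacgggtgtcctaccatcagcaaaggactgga
C1qb, chr5:154407828-154408077, minus strand: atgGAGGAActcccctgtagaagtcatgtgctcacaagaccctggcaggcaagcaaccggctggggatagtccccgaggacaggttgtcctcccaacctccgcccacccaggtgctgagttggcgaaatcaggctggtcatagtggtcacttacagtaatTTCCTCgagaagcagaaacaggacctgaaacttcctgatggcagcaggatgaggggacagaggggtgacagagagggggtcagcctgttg
C3, chr9:2201340-2201589, minus strand: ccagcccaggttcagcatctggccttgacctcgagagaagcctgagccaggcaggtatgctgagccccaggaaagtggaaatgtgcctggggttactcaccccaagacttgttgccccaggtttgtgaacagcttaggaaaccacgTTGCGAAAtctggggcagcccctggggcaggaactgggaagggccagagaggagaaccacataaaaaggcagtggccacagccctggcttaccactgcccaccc
Cfp, chrX:3715301-3715550, plus strand: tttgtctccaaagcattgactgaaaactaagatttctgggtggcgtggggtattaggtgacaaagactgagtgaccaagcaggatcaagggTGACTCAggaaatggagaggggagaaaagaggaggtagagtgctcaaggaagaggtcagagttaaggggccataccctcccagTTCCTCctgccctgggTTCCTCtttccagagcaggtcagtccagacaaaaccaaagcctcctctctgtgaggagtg

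A GAS match stood at 90 to 82 bases before the start of C1qa and in none of the other 4 windows, and 7.67% of all 33469 promoter windows of this length hold one. PU.1 matches were found in C1qb, with 2, and in Cfp, with 2 (23.3% of windows). The C/EBP motif stood at 104 to 97 bases before the start of C3 and in no other of the 5 (0.729% of windows). AP-1 matches were found in Cfp and C3ar1 (6.34% of windows). The PU.1 and C/EBP families include well known macrophage transcription factors.

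C2 is the protease of the convertase that the classical and lectin pathways form with C4. Its signal was 1011, 1209, 1681 and 895 on replicates 1 to 4, which is 219 to 368 times the median negative control. Replicate 3 was the brightest and replicate 4 the dimmest. After scaling the values closed up to 0.20, 0.37, 0.44 and 0.11, with a mean of 0.28 ± 0.15 (SD, n = 4) and a span of 0.34, against 0.91 without scaling.

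C3, the component on which all pathways converge, was detected close to the limit. Its probe gave 27.1, 28.0, 63.1 and 39.5 on replicates 1 to 4, with spot errors of 5.13, 5.58, 7.84 and 5.77. Before scaling, replicate 3 lay above each other array by more than both spot errors together. After scaling the levels were -5.02, -5.06, -4.29 and -4.39, so replicates 3 and 4 were the highest, under each setting run; the mean was -4.69 ± 0.40 (SD, n = 4). The span of 0.76 corresponds to 1.70-fold, and it was 0.34, with replicate 4 highest, with normexp, a setting that also takes the median signal in place of the processed one and adds an offset of 50. The median spot signal of C3 was 1.80 to 2.65 times the local background.

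Cfb, the protease of the alternative convertase and the neighbour of C2 on chromosome 20, was likewise dim but detected on every array. The signals were 60.1, 69.9, 78.1 and 71.6, with spot errors of 7.38, 8.49, 9.09 and 8.26. Replicate 3 was highest before scaling and lowest after it (-3.87, -3.74, -3.99 and -3.54, mean -3.78 ± 0.19, SD, n = 4), so the order of the arrays for Cfb follows the scaling. The span of 0.45 fell to 0.25 without replicate 4.

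Cfp encodes properdin, which stabilises the alternative convertase and is made by myeloid cells. Its signal was 5632, 6215, 5832 and 4326, 1058 to 1317 times the median negative control. Before scaling replicate 4 was lowest. Scaled levels were 2.68, 2.74, 2.24 and 2.38 (mean 2.51 ± 0.24, SD, n = 4), with a span of 0.50. Replicates 1 and 2 were the highest arrays under each scaling run, and replicates 2 and 3 without scaling.

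The 2 anaphylatoxin receptors differed in detection. C5ar1, the receptor for C5a that draws phagocytes to sites of activation, gave signals of 3261, 3483, 4804 and 2608, which is 638 to 1052 times the median negative control. Scaled, the levels were 1.89, 1.90, 1.96 and 1.65 (mean 1.85 ± 0.14, SD, n = 4). Replicates 1 to 3 lay within 0.07 of each other, and replicate 4 widened the span to 0.31.

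C3ar1, the receptor for C3a, has 2 probes that did not pass the background flag on the same arrays. The brighter probe had signals of 12.9, 31.4, 45.9 and 39.9 on replicates 1 to 4, with spot errors of 4.39, 5.59, 6.39 and 5.64, and was well above background on replicates 2, 3 and 4 but not on replicate 1. The dimmer probe had 8.73, 6.39, 29.1 and 6.57 and was well above background on replicate 3 alone. Scaled levels were -5.03 ± 0.74 and -6.56 ± 0.80 (SD, n = 4), with spans of 1.70 and 1.78 that rest on arrays where the probe was not well above background. Without replicate 1 C3ar1 became detected, and the brighter probe then spread by 0.51. C3ar1 was also detected when 3 of 4 arrays were asked for. The positive and significant flag and the negative control threshold gave the same call.

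**Figure D3:**
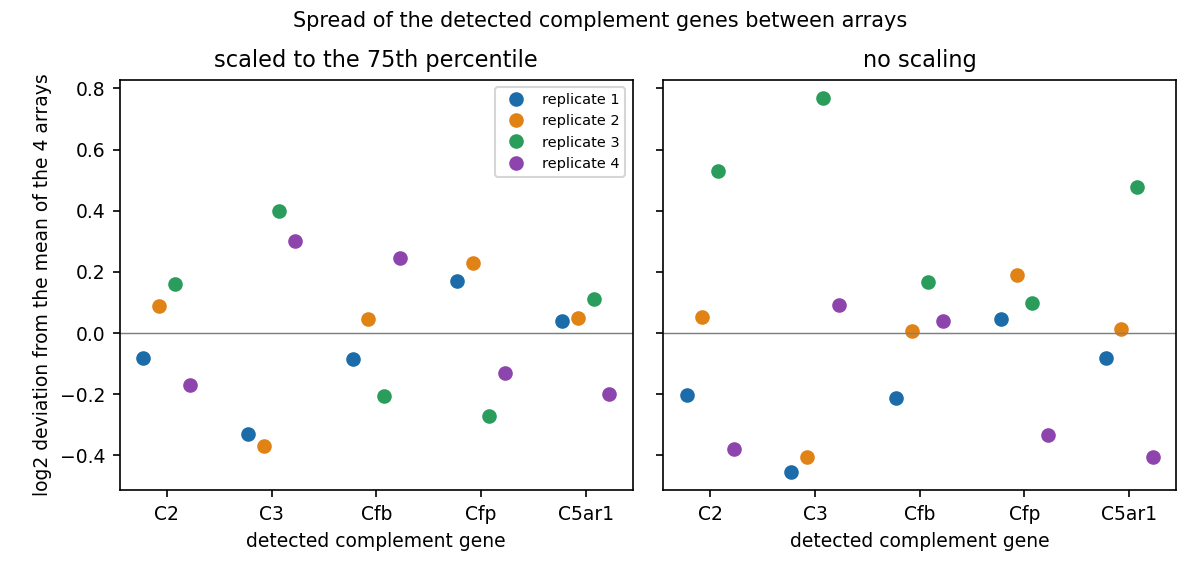
Deviation (log2) of each array from the mean of the 4 arrays for the 5 detected complement genes, scaled to the 75th percentile (left) and without scaling (right), 1 point per replicate. Without scaling replicate 3 is highest for C2, C3, Cfb and C5ar1; after scaling it is highest for C2, C3 and C5ar1 and lowest for Cfb and Cfp.

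Spread between the arrays was tested over all 8456 detected genes with limma, which set the variance of each gene against the variance fitted for genes of like signal. By this test 0.237% of all genes varied more than that fit. None of the 5 detected complement genes did (0 of 5 by limma, and 0 of 5 with eBayes without trend). At an unadjusted p under 0.05 the limma count was also 0 of 5, with Cfp at 0.0515; over the 10 other settings Cfp passed that level in 3, at 0.0246 with normexp, 0.0367 with no filter on dim probes and 0.0219 without replicate 4, and C3 in 1, at 0.0443 with eBayes without trend. The SDs of the 5 ran from 0.137 to 0.404 with a median of 0.193, beside a median of 0.144 over all tested genes. None spanned more than 2-fold between arrays, as 3.26% of all tested genes did.

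Among the 5, Cfp had the largest variance relative to genes of like signal, at 3.99 times the fitted value (adjusted p = 0.793, limma, with a range of 0.505 to 0.982 over the settings run). That place rests on the scaling and the model: with no scaling Cfp was at 0.705 times and C3 at 2.18 times, and with eBayes without trend C3 was at 7.33 times and Cfp at 2.57 times. In the scaled setting with trend C3 followed with 1.79 times, C2 with 1.35 times and C5ar1 with 1.25 times, and Cfb lay under the fit at 0.603 times (adjusted p = 0.995 for each, limma). A p that misses the threshold does not show that a gene was stable.

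**Figure D4:**
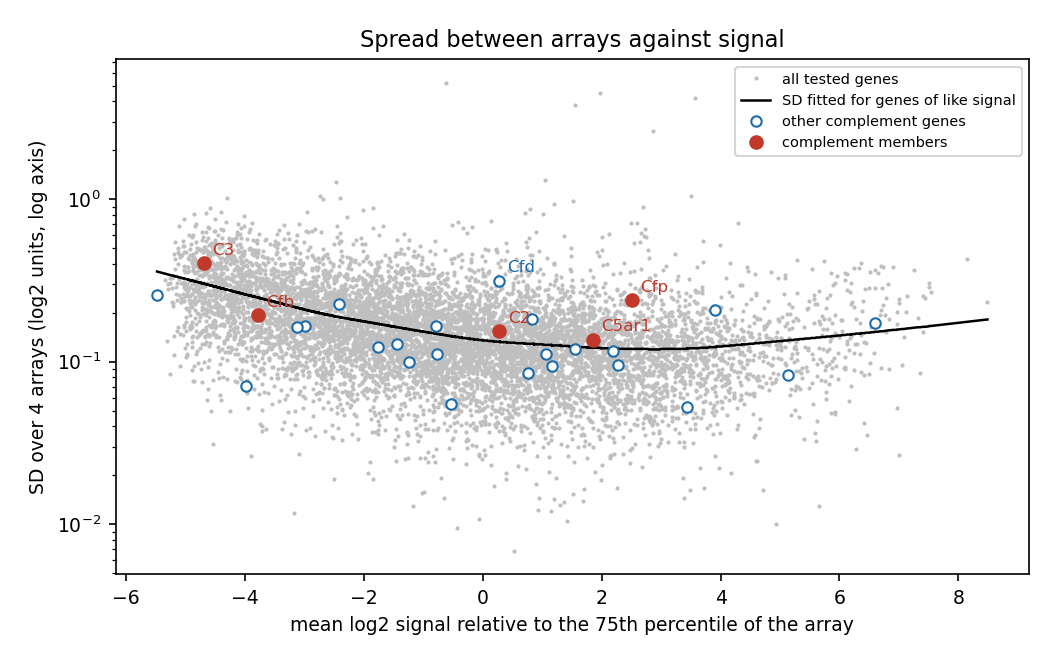
SD over the 4 arrays (log2 units, log axis) against mean log2 signal relative to the 75th percentile, with 1 grey point per tested gene, the fitted SD as a line, the 5 detected complement members in red and other complement genes in blue. Cfp and Cfd lie above the line and Cfb lies under it.

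Other complement genes were taken from a list of 53 genes sorted by role, of which 46 had a named probe. Of these 23 were detected, 2 partly and 21 not, and 50.0% detected is near the 51.0% of all named genes. By role, detection was 7 of 9 for receptors, 8 of 8 for their signalling partners and 3 of 5 for membrane regulators. It was 2 of 3 for C4a, C4b and factor D, while C5 had no named probe. C1 proteases had 1 of 2 and lectin pathway genes 1 of 7. Fluid-phase regulators had 1 of 8 and the terminal pathway 0 of 4. Each role holds few genes, and none was tested against the share of all named genes.

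Among genes that start the cascade, C1r, the protease that C1q activates, was detected at -2.42 ± 0.23 (SD, n = 4), and its partner C1s was not, by either of 2 probes. Of 7 lectin pathway genes with a named probe only the ficolin Fcna was detected (-2.99 ± 0.17). Mbl1 was well above background on 1 array, and Mbl2, Fcnb, Masp1 and Masp2 on none. C4b was detected by 1 of 2 probes, close to the limit (-5.48 ± 0.26), and C4a was not.

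Cfd, factor D, which cuts Cfb in the alternative pathway, was detected at 0.46, 0.58, -0.13 and 0.16 on replicates 1 to 4 (mean 0.27 ± 0.32). Replicates 1 and 2 were the highest arrays, also without scaling. Its variance was 5.69 times the fitted value, the 1 gene of the list with an unadjusted p under 0.05, and did not pass the test over all genes (adjusted p = 0.658, limma). Thus Cfb, Cfd and Cfp of the alternative pathway were detected, and C3 near the limit.

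None of the 4 terminal genes with a named probe, which help build the membrane attack complex, counted as detected. C6 was partly detected, being well above background on 2 arrays, and C8a, C8b and C9 were so on none. Of 8 fluid-phase regulators, 1 was detected, namely Serping1, the C1 inhibitor (-1.45 ± 0.13). Cfi, C4bpa, Clu and Vtn were among the 7 that were not.

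Membrane regulators that protect host cells were detected in 3 of 5. Cd55, decay accelerating factor, was detected by 4 of 5 probes and was at -0.77 ± 0.11 by its brightest probe. Cd59b, which blocks the membrane attack complex, was at 1.07 ± 0.11, and Cr1l, the rodent regulator Crry, at 1.55 ± 0.12. Cd46 and Csmd1 were not detected.

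Of the receptors, 7 of 9 were detected. Itgam and Itgb2, the 2 chains of complement receptor 3, were at 1.16 ± 0.09 and 3.43 ± 0.05, Vsig4, the macrophage receptor for C3b, at 2.27 ± 0.10, and C5ar2, the second C5a receptor, at -0.54 ± 0.06. Calr, C1qbp and Lrp1, which bind C1q or its collagen tail, were at 3.91 ± 0.21, 5.13 ± 0.08 and -1.24 ± 0.10. The B cell receptor Cr2 and Cd93 were not detected. All 8 genes of anaphylatoxin receptor signalling with a named probe were detected, with Gnai2, a G protein subunit that couples to these receptors, at 6.60 ± 0.17, Gna15 at -0.79 ± 0.17, Arrb2, an arrestin, at 0.82 ± 0.18 and Pik3cg at -3.98 ± 0.07. Over the 23 detected genes of the list the median SD was 0.119, none passed the limma variance test and 1 had an unadjusted p under 0.05.

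**Figure D5:**
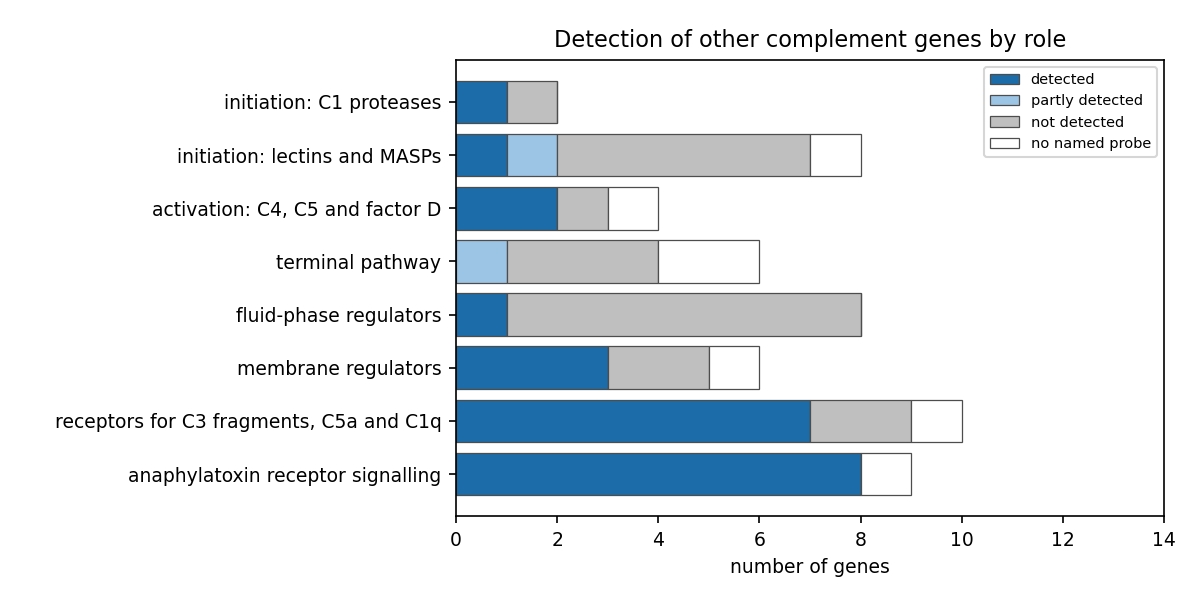
Number of genes detected, partly detected, not detected or without a named probe, for each role in the list of other complement genes. Of genes with a named probe, 7 of 9 receptors, 8 of 8 receptor signalling genes and 0 of 4 terminal pathway genes were detected.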

How the data were processed

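The 4 arrays hold 1 sample each of a single group, and the series' design text calls them biological replicates. Per the file headers, the deposited values are spot intensities from Agilent Feature Extraction 11.0.1.1 (processed signal, median signal, local background and software error), with no step between arrays, plus flags of 0 or 1. The array header names the build rn4. Transcript accessions, stripped of versions, were looked up in the RefSeq table of GRCr8, which named 21109 of 45598 probes (46.3%). Each complement gene had at least 1 named probe.

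Control spots and spots with an outlier flag were left out, and log2 processed signals were averaged per probe and scaled by the 75th percentile of all gene spots. A probe with several spots was well above background when more than 50% of them were. For a gene with several probes the one with the highest mean gave the level. The limma variance test (limma 3.58.1, R 4.3.3; intercept only, eBayes with trend and robust, upper-tail F test, Benjamini-Hochberg, threshold 0.05) was also run on simulated data. These were drawn around the spread that the test itself fits, so that run does not show how it fares on real arrays. The outcome of that run is not reported here. Tables and figures were made with pandas 2.3.3, numpy 2.4.6 and matplotlib 3.10.9 in Python 3.11.15.

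The complement genes, the pathway list, the markers and the tests were chosen with earlier results of these data known. Named were all 9 genes, each detected gene of the list that the text describes, up to 4 not detected per role, and up to 3 markers per cell type. Genes of like pattern were not sought. Alternatives covered the detection rule, scaling, background correction, filter, variance model and leaving out each replicate. Probe sequences and protein sequences were not used here, and some items of the lists are not reported here.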

Additional observations from a re-analysis of the deposited data

Results flagged for a closer look

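Among 33 probes of the complement genes and of the detected genes on the list, 2 had 1 array whose gap to the nearest other was past Dixon's 95% critical value for 4 samples; chance does this in about 1 of 20 groups. C1qa had a scaled log2 level of -7.12 on replicate 3, where the other arrays gave -6.38 to -6.30. Its unscaled signal there was 8.90, against 9.98 to 11.3 on the others, and the 75th percentile used for scaling was 1237 on that array, against 831 to 932. C1qa was not well above background on any array. Arrb2 had a scaled log2 level of 1.09 on replicate 4, where the other arrays gave 0.72 to 0.74.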

How the results depend on the processing

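The count of detected complement genes was 5 of 9 and lay between 5 and 7 over the 8 alternatives, with 7 for the positive and significant flag (60.4% of all named genes) and for the negative control threshold (60.7%), 6 for at least 3 of 4 arrays and 5 with outlier spots kept. Without 1 replicate it was 5 to 6, the 6 without replicate 1. The list of other complement genes gave 23 to 25 of 46. None of the detected complement genes was called hypervariable under any of the 10 alternatives of the variance test. The count over all genes, 20 in the setting reported, was 10 with the 75th percentile over detected probes, 10 with quantile normalization, 57 with normexp on the median signal, 79 with no filter on dim probes, 4 with eBayes without trend, and 3 (without replicate 3) to 63 (without replicate 2) when 1 replicate was left out. The median span of the 5 detected complement genes, 0.45, was 0.88 with no scaling and 0.25 to 0.45 without 1 replicate, the lowest without replicate 4. Mean levels of all 5 moved by more than 1 SD when the percentile was taken over detected probes, which moves the zero, and those of C3, Cfb and Cfp with normexp (-3.29, -2.85 and 2.25). No paired analysis was possible because the series holds 1 group. Signal over background limits C3, Cfb, C3ar1 and the C1q chains.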
